A study of Mus musculus with 6 samples.

Results

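Platelets are shed by megakaryocytes, and their alpha granules store adhesion proteins and chemokines that are released or brought to the surface on activation. Their surface carries receptors for fibrinogen and for von Willebrand factor, which hold platelets to each other and to a damaged vessel wall. Messenger RNA of 10 genes of this lineage was described here in mouse bone marrow progenitors that had or lacked miR-155. MicroRNAs of this kind pair with messenger RNAs and reduce their level or translation, and miR-155 is known for its role in immune and myeloid cells. The genes were Selp, Ppbp, Pf4, Vwf and Treml1, whose products lie in or on platelet granules, Itga2b, Itgb3, Gp1bb and Gp9, which encode chains of surface receptors, and Nrgn, which belongs to neither set. A value was read for 9 of the 10, from a table of 14860 named genes with 1 row per gene. The single row that names Gp1bb also names its neighbour Septin5, so no value was taken for Gp1bb. Each of the other 9 genes had 1 row. The members were chosen by their lineage with the measured differences between knockout and wild type already known, which put Selp and Ppbp first, so those differences are given as a description, with no test.

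The study compared 3 arrays from miR-155 knockout cells with 3 arrays from wild-type cells. Both groups were primary marrow cultures from female C57Bl/6 mice, 12 weeks old and treated with 5-FU, a drug that kills cycling marrow cells. Both had been transduced with MSCV retroviral vectors for Hoxa9-GFP and Meis1-YFP, a homeobox gene pair that immortalises myeloid progenitors when expressed together. Both were grown in DMEM with 15% fetal calf serum, IL3, SCF and IL6. Every array therefore carries the 2 transgenes, and neither group holds untransduced cells. The design text calls the experiments independent, but no label ties an array to an animal or culture, so a p-value measures only array-to-array spread, which may be technical.

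Values are on the log2 scale after the robust multi-array average method, called log2 levels below. Array medians over all rows ran from 6.55 to 6.66, and 0 pairs of arrays held identical values. A background level of 5.98 was set at the 95th percentile of the means of 718 olfactory receptor genes, taken as silent in marrow. The first principal component, with 37.2% of the variance, grouped wild type 2 with knockout 1 and knockout 2, and knockout 3 with wild type 1 and wild type 3, so both sides held both genotypes. In limma, 4 of the 14860 genes (Tnfrsf9, Rcn3, Vat1l and Capn11, named after their values were seen) were lower in the knockout and 0 were higher at an adjusted p under 0.05. Without adjustment, 265 genes were higher and 809 lower at p under 0.05, a higher share of 24.7%, which became 35.3% with median-centred arrays and 36.6% with quantile-normalised arrays. The median difference of all genes was −0.03. The deleted gene was not read, since neither Mir155 nor Mir155hg named a row.

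The mature strands of the deleted microRNA are shown because it is the only designed difference between the groups. They are RefSeq sequences on GRCm38.p6, plus strand, at chr16:84714143-84714165 and chr16:84714182-84714202, with the seed in capitals.
mmu-miR-155-5p: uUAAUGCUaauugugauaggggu
mmu-miR-155-3p: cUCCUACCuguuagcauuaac

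The promoters of Selp, Ppbp, Pf4 and Itga2b are shown because Selp and Ppbp had the largest differences of the list, Pf4 is the gene next to Ppbp, and Itga2b had the smallest difference. Each is the 250 bases before the RefSeq start on GRCm38.p6, 5′ to 3′ on the gene's strand. The regions are chr1:164115014-164115263 (plus) for Selp, chr5:90768268-90768517 (plus) for Ppbp, chr5:90772185-90772434 (plus) for Pf4 and chr11:102469884-102470133 (minus) for Itga2b. Capitals mark AGGAAG or CGGAAG, the letters searched for the ETS family, on either strand. Shorter or other forms of the ETS motif are not marked.
Selp: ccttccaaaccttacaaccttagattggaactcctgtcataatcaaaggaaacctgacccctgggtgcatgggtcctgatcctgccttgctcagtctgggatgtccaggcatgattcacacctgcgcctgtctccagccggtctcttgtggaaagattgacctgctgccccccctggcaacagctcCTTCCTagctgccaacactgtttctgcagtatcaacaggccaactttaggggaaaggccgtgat
Ppbp: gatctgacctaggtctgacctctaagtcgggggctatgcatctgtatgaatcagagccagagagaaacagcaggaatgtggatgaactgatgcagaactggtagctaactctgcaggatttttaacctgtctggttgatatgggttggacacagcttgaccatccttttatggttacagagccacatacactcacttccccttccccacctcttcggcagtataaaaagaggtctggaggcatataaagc
Pf4: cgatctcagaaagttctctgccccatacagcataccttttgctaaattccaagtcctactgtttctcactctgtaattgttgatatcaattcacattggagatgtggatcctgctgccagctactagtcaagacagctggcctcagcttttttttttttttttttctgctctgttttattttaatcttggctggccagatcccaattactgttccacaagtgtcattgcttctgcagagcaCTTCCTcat
Itga2b: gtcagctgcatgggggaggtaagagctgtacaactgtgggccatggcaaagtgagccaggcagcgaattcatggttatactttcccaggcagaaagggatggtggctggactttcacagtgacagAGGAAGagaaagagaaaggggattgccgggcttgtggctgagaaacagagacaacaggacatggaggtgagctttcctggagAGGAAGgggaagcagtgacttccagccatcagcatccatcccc

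RefSeq promoters were matched for 8 of the 10 genes. Windows of 250 bases were searched on both strands for letters bound by factors of the megakaryocyte lineage: AGATAA or its variant TGATAA for GATA factors, AGGAAG or its variant CGGAAG for ETS factors, TGTGGT for RUNX factors, with TGACTCA for NF-E2. No matches of the motifs overlapped within these windows. The ETS letters were present in 5 of the 8 windows, at −64 to −59 in Selp, −9 to −4 in Pf4, −125 to −120 and −43 to −38 in Itga2b, −90 to −85 in Gp1bb and −16 to −11 in Gp9, where −1 is the base before the start. Of 32851 windows of this length in the promoter table, 39.2% held them. The RUNX letters were present in Gp9 alone of the 8, at −171 to −166, against 14.0% of all windows. The GATA letters were in 0 of the 8, against 16.6% of all windows, and the NF-E2 letters in 0 of the 8, against 4.46%. Only the letters given above were searched, so a count of 0 does not mean that other forms of a motif are absent. Selp, with a high value in the knockout, and Itga2b, with like values in both groups, both held ETS letters. Ppbp held none of the letters searched.

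Among the granule genes, Selp and Ppbp stood clearly higher in the knockout, and Pf4, Vwf and Treml1 had smaller differences, of 0.11 to 0.23. Selp encodes P-selectin, an adhesion receptor of the alpha granule membrane that moves to the surface on activation and is also made by endothelial cells. Its log2 level was 7.96, 8.16 and 8.02 on knockout arrays 1 to 3 and 7.48, 7.42 and 7.44 on wild-type arrays 1 to 3. All knockout arrays lay above all wild-type arrays, with 0.49 between the nearest pair, and the wild-type arrays lay close together. The means were 8.05 ± 0.10 and 7.45 ± 0.03 (SD, n = 3 each), a log2 difference of 0.60 with a standard error of 0.08, or 1.52-fold. By size, Selp ranked 109 of the 14860 differences.

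Ppbp encodes the precursor of a platelet chemokine that draws in neutrophils through the receptor Cxcr2. On the log2 scale it stood at 10.27, 10.22 and 10.41 on the knockout arrays and 9.95, 9.69 and 9.78 on the wild-type arrays. The groups did not overlap, and the nearest pair, knockout 2 and wild type 1, lay 0.26 apart. The means were 10.30 ± 0.10 and 9.81 ± 0.13 (SD, n = 3 each), a log2 difference of 0.49 with a standard error of 0.10, or 1.41-fold. Ppbp ranked 209 by size.

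Pf4, which lies next to Ppbp on the chromosome, encodes a heparin-binding chemokine of the alpha granule. Its values were 8.59, 8.52 and 8.40 in the knockout and 8.43, 8.56 and 8.14 in the wild type. The groups overlapped, since wild type 2 lay above knockout 2 and knockout 3, and wild type 3 was the lowest of the 6 arrays. The difference was 0.13 (standard error 0.12), and it was 0.01 without wild type 3 and 0.22 without wild type 2. Ppbp differed by 0.43 to 0.57 with any 1 array left out, a range that could not reach 0 because its groups did not overlap. On knockout 3 Ppbp had its highest value while Pf4 had its lowest of that genotype.

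Vwf encodes von Willebrand factor, which tethers platelets to collagen and, like P-selectin, is also made by endothelial cells. On the log2 scale it read 6.88, 6.89 and 7.02 in the knockout and 6.86, 6.78 and 6.83 in the wild type. The groups were separated by 0.02, with knockout 3 alone clearly above the rest, and the difference was 0.11 (standard error 0.07), or 0.06 without knockout 3. Treml1 encodes a receptor of the alpha granule membrane that binds fibrinogen. Its log2 level was 6.91, 7.15 and 7.34 in the knockout and 7.09, 6.62 and 6.99 in the wild type. The groups overlapped, and Treml1 had the widest spread within genotype of the 9 genes, with SDs of 0.22 and 0.25. Its difference was 0.23 with a standard error of 0.15, and it was 0.09 without wild type 2, the lowest array, and 0.13 without knockout 3, the highest.

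**Figure D1:**
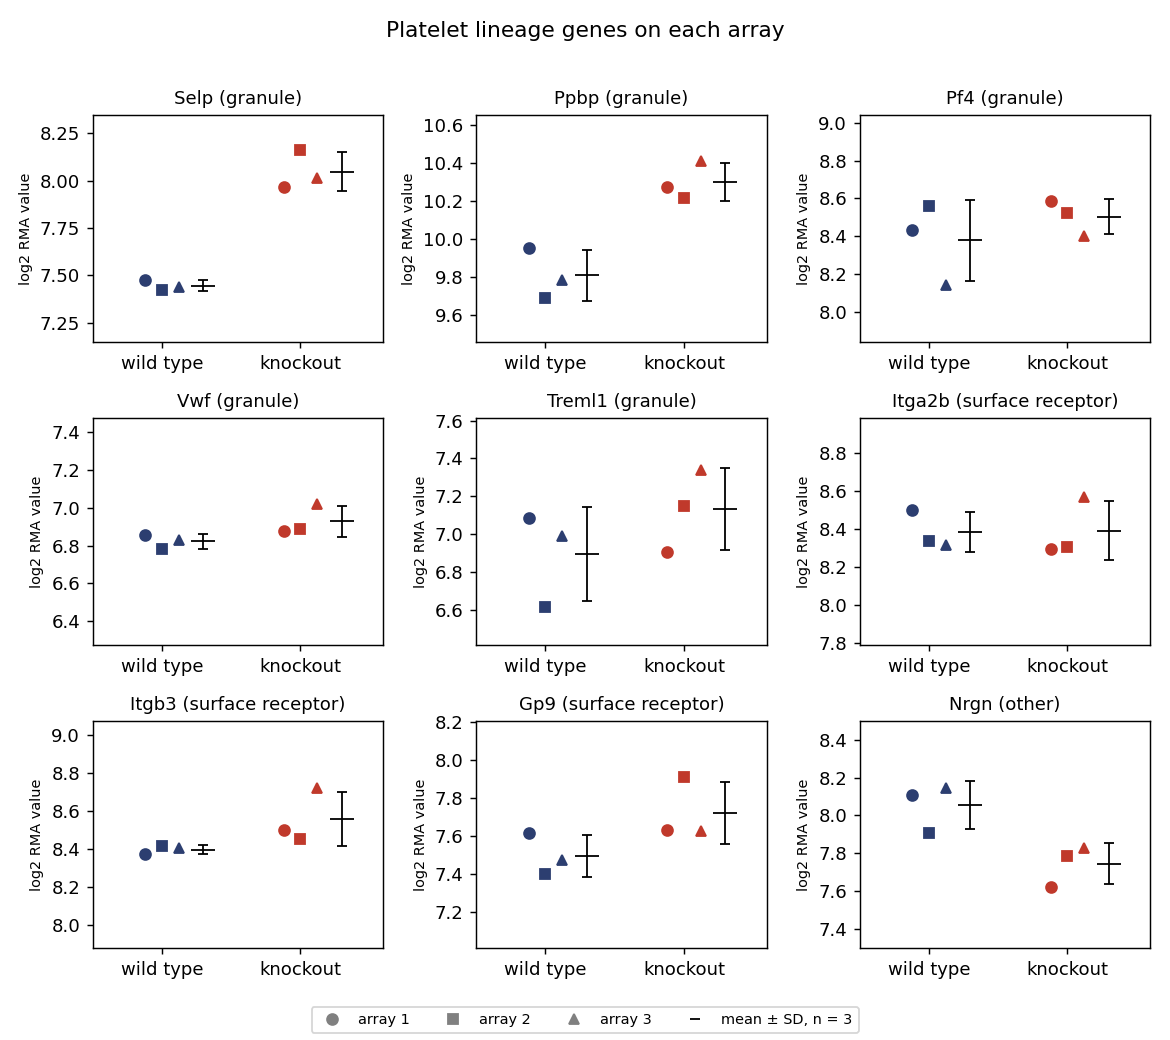
Log2 RMA value of each of the 9 measured genes (y axis, every panel spanning 1.2 log2 units) on the 3 wild-type (blue) and 3 knockout arrays (red), with the mean and SD in black and the array number as the symbol. Selp and Ppbp show a gap between the groups of 0.49 and 0.26, whereas Pf4, Treml1 and Itga2b overlap.

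The surface receptor genes differed less than Selp and Ppbp, but Itgb3 and Gp9 lay in the range of the other granule genes. Itga2b and Itgb3 encode the chains of the platelet fibrinogen receptor, and Itga2b also marks early megakaryocyte progenitors. Itga2b had log2 levels of 8.30, 8.31 and 8.57 in the knockout and 8.50, 8.34 and 8.32 in the wild type. The groups overlapped fully, with knockout 3 highest and knockout 1 lowest, and the difference was 0.01 (standard error 0.10). Leaving out wild type 2 turned it to −0.02, leaving out wild type 3 to −0.03 and leaving out knockout 3 to −0.08, so Itga2b had no stable direction.

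Itgb3 had log2 levels of 8.50, 8.45 and 8.72 in the knockout and 8.37, 8.42 and 8.40 in the wild type. The wild-type arrays lay within a narrow band, knockout 3 stood above all others, and the groups were separated by 0.04. The difference was 0.16 (standard error 0.09), and 0.08 without knockout 3. Gp9 encodes a chain of the receptor complex for von Willebrand factor. The log2 values were 7.63, 7.91 and 7.63 in the knockout and 7.62, 7.40 and 7.47 in the wild type. The groups were separated by 0.01, knockout 2 lay well above the rest, and the difference was 0.23 (standard error 0.11), or 0.13 without knockout 2.

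Nrgn encodes neurogranin, a calmodulin-binding protein known from neurons whose transcript is also abundant in human platelets. It ran the other way, with log2 levels of 7.62, 7.78 and 7.83 in the knockout and 8.11, 7.91 and 8.15 in the wild type. The groups were separated by 0.08, and the difference was −0.31 (standard error 0.10). Of 6 neuronal markers, Snap25, Syt1, Camk2a and Stmn2 lay below the background level, Camk2a only just. Rbfox3 and Syp lay above it, with log2 means of 6.39 and 6.22 and differences of −0.17 and 0.06. The mean log2 level of the 6 was 5.44 to 5.53 on the knockout arrays and 5.39 to 5.67 on the wild-type arrays.

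**Figure D2:**
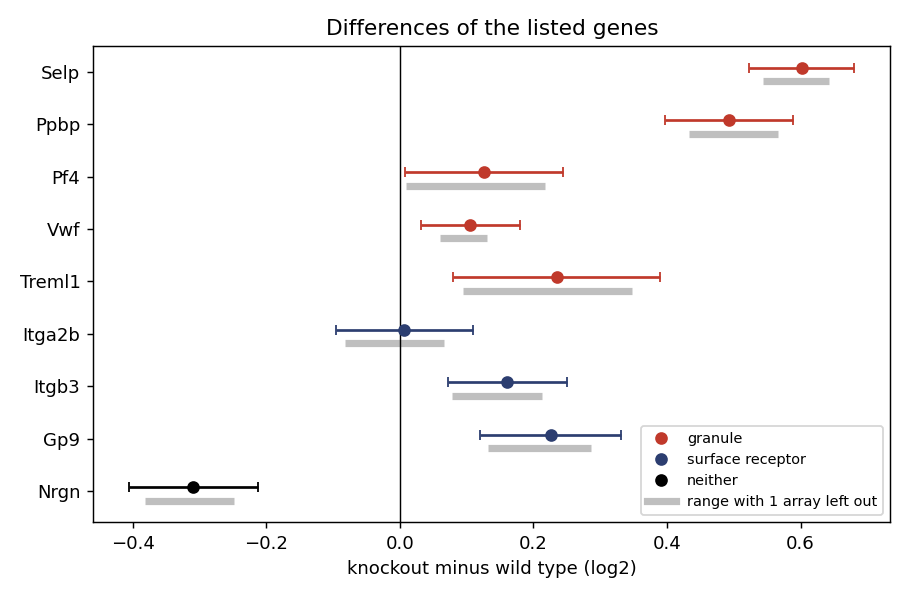
Knockout minus wild type on the log2 scale (x axis) for the 9 measured genes, with the standard error from limma as the bar and, as the grey band, the range of the difference when any 1 of the 6 arrays is left out. The bands of Selp (0.54 to 0.64) and Ppbp (0.43 to 0.57) lie apart from those of the other genes, and only the band of Itga2b crosses 0.

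The median difference of the 9 genes was 0.16, with 8 above 0 and 1 below, beside −0.03 and 39.0% above 0 for all genes. The groups did not overlap in 5 of the 9 on the higher side (2.88% of all genes) and in 1 of the 9 on the lower side (10.4% of all genes). Since the list was drawn up from this contrast, nothing is read from these counts. They also depended on the scaling, in settings added after seeing the data. After median centring 3 genes were separate on the higher side (4.14% of all genes) and 0 on the lower side (7.27%), and after quantile normalisation also 3 (4.72%) and 0 (6.80%). Selp and Ppbp were separate under all 3 scalings, by at least 0.42 and 0.22, while Vwf, Gp9 and Nrgn overlapped under both of the others. Itgb3 overlapped after quantile normalisation and Pf4 became separate, by 0.02.

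Taken by role, the mean log2 level of the 5 granule genes was 8.12, 8.19 and 8.24 in the knockout and 7.96, 7.81 and 7.84 in the wild type. The mean of the 3 measured receptor genes was 8.14, 8.22 and 8.31 in the knockout and 8.16, 8.05 and 8.06 in the wild type. The granule means did not overlap between the groups, and the receptor means did, through wild type 1 and knockout 1. The differences of these means were 0.31 for the granule genes and 0.13 for the receptor genes. Selp and Ppbp held the 2 largest of the 5 granule differences, and the other 3 granule genes, at 0.11 to 0.23, lay in the same range as Itgb3 and Gp9.

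Part of the spread was shared across genes within a genotype. Knockout 3 was the highest knockout array for 6 of the 9 genes and knockout 1 the lowest for 5. Wild type 1 was the highest wild-type array for 6 and wild type 2 the lowest for 6. Pf4 went against this order in both genotypes, with its highest values on knockout 1 and wild type 2. Within the first side of the principal component, which held knockout 1, knockout 2 and wild type 2, the difference was 0.64 for Selp and 0.56 for Ppbp. Within the second side, which held the other arrays, it was 0.56 and 0.54. Pf4 differed by −0.005 on the first side and 0.12 on the second, Itgb3 by 0.06 and 0.33, Gp9 by 0.37 and 0.08, and Itga2b by −0.03 and 0.16. Treml1 differed by 0.41 and 0.30 on the 2 sides, Vwf by 0.10 and 0.18 and Nrgn by −0.21 and −0.30. Pf4 and Itga2b thus lay slightly below 0 on the first side and above it on the second, and the other 7 genes kept their sign. The first side held 1 wild-type array and the second 1 knockout array. Each of these differences hangs on that array, so no consistency is read from the signs.

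**Figure D3:**
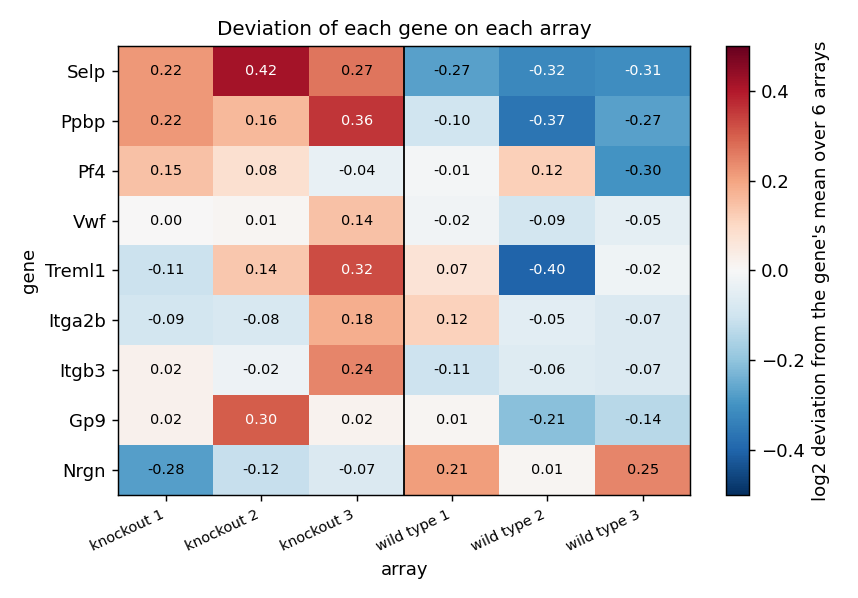
Deviation of each gene on each array from that gene's own mean over the 6 arrays, on the log2 scale (colour and printed value), with genes as rows and arrays as columns. Selp and Ppbp are above their mean on all knockout arrays and below it on all wild-type arrays, Vwf shows the same signs with smaller values and Nrgn the reverse, and the other rows are smaller or mixed in sign.

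The label was set beside lineage markers. Of 16 megakaryocyte and platelet markers, the 9 genes among them, 11 had a row and 10 of these lay above the background level, against 66.1% of all genes. Beyond the listed genes only Gp5, with a log2 mean of 6.41, and Clec1b had a row, so this count is no separate check of the label. Gp1ba, Gp6 and Tubb1, well-known markers of the lineage, were not among the genes analysed here, and the mean of Clec1b over all 6 arrays was below the background level. The myeloid markers Mpo, Elane and Ctsg, which encode neutrophil primary granule proteins, had log2 means of 13.06, 13.70 and 12.45, and all 7 measured myeloid markers were above background. The mean of the 7 was 10.88 to 11.18 on the knockout arrays and 11.09 to 11.19 on the wild-type arrays, with 4 higher and 3 lower in the knockout. Adgre1, a macrophage marker, differed by −0.82 and Mpo by 0.24, both without overlap, and Itgam by −0.28, and the part of these markers in the results was not tested. These bulk cultures thus carried myeloid markers together with transcripts of platelet genes, and in bulk samples more cells of a type and more RNA per cell cannot be told apart. Endothelial cells also make P-selectin and von Willebrand factor. Of 10 endothelial markers 7 lay below background, among them Cdh5, Kdr and Tek. The other 3 lay above it, with log2 means of 11.29 for Pecam1, 7.80 for Egfl7 and 6.34 for Tie1. Pecam1 differed by −0.36 and Egfl7 by −0.20, both without overlap, and Tie1 by 0.01. The mean log2 level of the 10 was 5.99 to 6.06 on the knockout arrays and 6.11 to 6.13 on the wild-type arrays. Erythroid cells share progenitors with megakaryocytes. Of 7 measured erythroid markers 5 lay below background, and their mean was 5.34 to 5.51 in the knockout and 5.40 to 5.53 in the wild type. All 10 measured mast cell and basophil markers lay above background, with a mean of 9.26 to 9.62 in the knockout and 9.18 to 9.40 in the wild type. Of these 5 were higher and 5 lower in the knockout, Fcer1a by 0.98 and Prss34 by −0.47 at the extremes, and their part in the values of Selp and Ppbp was not tested.

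Other genes of the lineage, partners of P-selectin, and chemokine genes with receptors were taken from lists made with general knowledge and with earlier results of these data known. They were tested in limma over all 14860 genes. Of 94 tested genes in 6 lists, 0 passed the adjusted test in either direction, against 0% (higher) and 0.0269% (lower) of all genes. Of the 94, 10 were higher and 12 were lower at p under 0.05 before adjustment, against 1.78% and 5.44% of all genes. Together these were 23.4% of the 94, beside 1074 of all 14860 genes. Since the lists were made with results known, nothing is read from this share. Their median difference was −0.02, beside −0.03 for all genes, and 78 of the 94 lay above the background level. The positive median of the listed genes, which were chosen with their differences known, was not seen across these lists.

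Other granule genes, 19 of which were tested, had a median difference of −0.02. Before adjustment (p under 0.05) 3 were higher and 1 lower, against 1.78% and 5.44% of all genes. Clu, the chaperone clusterin, had knockout and wild-type means of 8.92 ± 0.04 and 8.68 ± 0.08 (SD, n = 3 each), with a limma adjusted p of 0.538. F5, coagulation factor V and the gene next to Selp, had means of 8.26 ± 0.15 and 7.95 ± 0.14 (SD, n = 3 each) and overlapping groups, with a limma adjusted p of 0.596. Timp3, an inhibitor of metalloproteinases, had means of 8.04 ± 0.11 and 8.37 ± 0.19 (SD, n = 3 each), also with a limma adjusted p of 0.596.

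Other surface receptors, 21 of which were tested, had a median of −0.03. Before adjustment 1 was higher and 8 were lower, together 42.9% of the 21, against 1.78% and 5.44% of all genes. Pear1, a receptor that sustains platelet aggregation, had the smallest p of all the lists. Its log2 level was 7.13, 7.26 and 7.06 in the knockout and 7.76, 7.64 and 7.68 in the wild type, with no overlap and a difference of −0.54 (limma, adjusted p = 0.168). F2rl2, a thrombin receptor of mouse platelets, differed by −0.39 (limma, adjusted p = 0.402). Clec1b, the platelet receptor for podoplanin, differed by 0.30 (limma, adjusted p = 0.461), with a mean over all 6 arrays below the background level and a knockout mean of 6.06 above it. Gp5, which joins Gp9 in the receptor for von Willebrand factor, had log2 levels of 6.46, 6.49 and 6.86 in the knockout and 6.42, 6.63 and 5.57 in the wild type. Wild type 3 alone was low, and the difference of 0.40 did not pass (limma, adjusted p = 0.824).

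Of 18 transcription regulators of the lineage, 1 was higher and 0 were lower before adjustment, against 1.78% and 5.44% of all genes. That gene was Mef2c, with a knockout mean of 9.50 ± 0.14 and a wild-type mean of 9.23 ± 0.12 (SD, n = 3 each), for which limma gave an adjusted p of 0.614. Gata1, the factor that drives megakaryocyte and erythroid genes, differed by 0.11, Fli1 by 0.14, Nfe2 by −0.07 and Runx1 by 0.02, with limma adjusted p-values of 0.799, 0.789, 0.920 and 0.974. As deposited, Mef2c, Gata1 and Fli1 were higher in the knockout without overlap, as were 2.88% of all genes, and Nfe2 and Runx1 overlapped. Fli1 differed by 0.08 without wild type 3. Mrtfa, a cofactor of serum response factor, differed by −0.19 (limma, adjusted p = 0.745), and by −0.12 without knockout 3. All 18 had mean levels above background.

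Among 22 cytoskeletal, signalling and enzyme genes, 4 were higher and 2 lower before adjustment, against 1.78% and 5.44% of all genes. Gucy1b1, a chain of the soluble guanylate cyclase, differed by 0.65 (limma, adjusted p = 0.385), and Gng11, a G protein gamma chain, by −0.49 (limma, adjusted p = 0.538), both with means over all 6 arrays below background, although the knockout mean of Gucy1b1, 6.10, was above it. Mylk, the myosin light chain kinase, had means of 8.56 ± 0.08 and 9.02 ± 0.16 (SD, n = 3 each), with a limma adjusted p of 0.402.

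None of the tested partners of P-selectin passed the adjusted test. Selplg, its main ligand on leukocytes, had log2 levels of 11.35, 11.42 and 11.25 in the knockout and 11.52, 11.52 and 11.64 in the wild type, a difference of −0.22 (limma, adjusted p = 0.605). Fut7 and Gcnt1, which build the sugar that selectins bind, differed by −0.23 and 0.17 (limma, adjusted p = 0.732 and 0.846). Fut7 differed by −0.12 without knockout 3, and Gcnt1 by 0.07 without wild type 3, 0.09 without knockout 2 and 0.27 without knockout 3. Sele, the endothelial selectin near Selp, was below background and differed by 0.09 (limma, adjusted p = 0.872). Of the chemokine genes, Cxcl5, the other neighbour of Ppbp, was below background and differed by 0.02 (limma, adjusted p = 0.979), and Cxcl10 differed by −0.18 (limma, adjusted p = 0.746). Cxcl11 and Cxcl15, both below background, differed by 0.47 and −0.21 (limma, adjusted p = 0.576 and 0.817), and Cxcl15 by −0.12 without wild type 1 and −0.35 without wild type 2. The lowest and highest differences of the 12 tested genes that lie next to any of the 9 listed genes were −0.22 and 0.31, and 0 of the 12 passed the adjusted test.

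**Figure D4:**
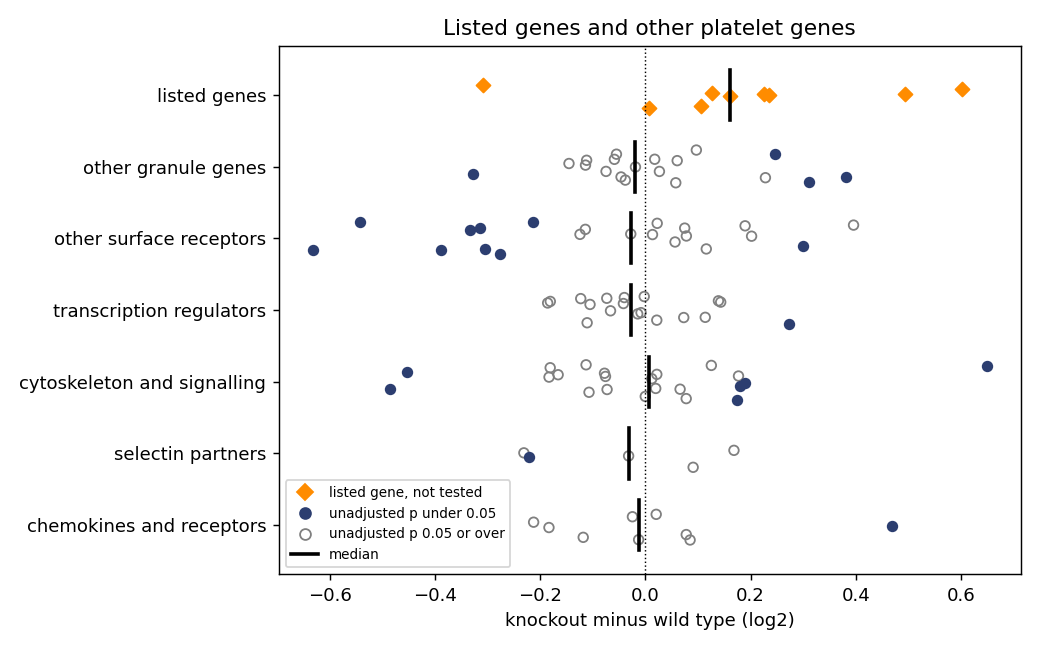
Knockout minus wild type on the log2 scale (x axis) for the 9 listed genes (diamonds, not tested) and for the tested genes of 6 other lists (circles, filled at an unadjusted p under 0.05), with the median of each row as a bar. The 6 lists hold platelet genes, selectin partners, and chemokines with receptors. The listed genes have a median of 0.16, and the 6 lists have medians from −0.03 to 0.01.

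Selp and Ppbp were each set against 5068 other genes that lay above background and varied by at least 0.3 over the 6 arrays. Predicted genes, olfactory and vomeronasal receptor genes and small RNA genes were left out by name. Vwf and Itga2b varied by less than 0.3, so they were not ranked. Likeness was Pearson's r over the 6 arrays, which share the genotype contrast, so it is a description with no p. The 5 genes most like Selp were Gpr171 (a G protein-coupled receptor, r = 0.984), Zfp652 (a zinc finger protein, r = 0.982), Cds1 (r = 0.977), Smad5 (a BMP signal transducer, r = 0.975) and Adat2 (r = 0.971). The 5 most like Ppbp were Tph1 (the serotonin synthesis enzyme, r = 0.987), Mrvi1 (r = 0.980), Scin (an actin-severing protein, r = 0.976), Fcer1a (a chain of the IgE receptor of mast cells and basophils, r = 0.968) and Tal2 (r = 0.963). The 2 sets had no gene in common. Ppbp came 24th in the order for Selp (r = 0.905) and Selp 19th in that for Ppbp. Pf4, at r = 0.408 and 0.301, came far lower in both orders. By this measure Tph1 and Fcer1a, which mast cells express, came before every listed platelet gene that was ranked in the order for Ppbp. Of the 10 measured mast cell and basophil markers, however, 5 were higher and 5 lower in the knockout. A part of mast cells in the values of Ppbp was not tested.

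**Figure D5:**
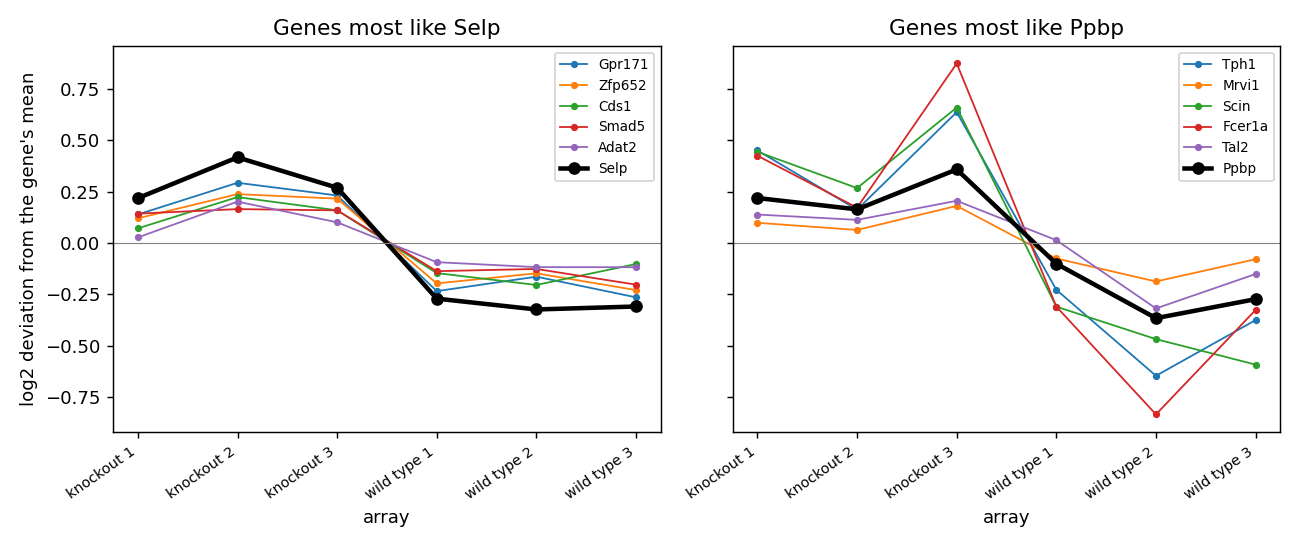
Deviation from each gene's own mean over the 6 arrays (y axis, log2) for Selp with its 5 most alike genes and for Ppbp with its 5, where lines only join the points of 1 gene. The genes alike to Selp have 3 high knockout and 3 low wild-type arrays, and those alike to Ppbp are highest on knockout 3.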

How the data were processed

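Per the labels' protocols, RNA was biotinylated with the WT Terminal Labeling Kit and read on Affymetrix arrays. Per the submitters' processing notes, Affymetrix Expression Console and RMA gave the deposited log2 values. Version and settings were not stated. Since RMA equalises the distributions of the arrays, an overall change of RNA per cell would not show and differences can shrink. Precision is limited by the 6 arrays (median standard error 0.10).

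Of 23332 rows, 14996 had 1 gene symbol in the platform annotation, 1019 had several and 7317 were unnamed. The brightest single-symbol row per gene was kept. Knockout and wild type were compared with limma 3.58.1 in R 4.3.3 (lmFit, eBayes, no filter), two-sided, with Benjamini-Hochberg adjustment over all genes. With 3 against 3 arrays, exact permutation p-values stop at 0.1. The fit was tested on simulated data of 14860 genes with 200 changed, by 0.5, 1, 1.5 or 2 on the log2 scale. It recovered 44.2% of differences of 0.5 and 84.2% of differences of 1. The simulated noise was drawn separately for each gene, without the spread that the real arrays share across genes. These rates are therefore not the power of this contrast and may overstate it. The members and all lists were chosen with earlier results of these data known. The text names the listed genes, the genes of each other list past the adjusted threshold or else its 3 smallest p-values, a few set relatives and regulators, and 5 genes most like Selp and Ppbp. Some set names without a row were not analysed here. Replicates were numbered from the titles for the knockout and in listing order for the wild type. Motifs were searched in RefSeq promoters. Figures used matplotlib 3.10.9.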

Additional observations from a re-analysis of the deposited data

How the results depend on the processing

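No paired analysis was possible because all 3 wild-type titles end in the same numeral. The difference of each of the 9 listed genes moved by less than its pooled SD between arrays under median centring and quantile normalisation. Median centring moved every gene by the same amount. The move was also below that SD with the array grouping as a block. Mean rows per gene changed nothing for genes with 1 row. Leaving out 1 of 3 arrays cannot move a difference by as much as that SD, so it is no check by this measure. Only Itga2b turned below 0, in 3 of 10 settings. With 1 array left out, the median difference of the listed genes ran from 0.13 to 0.19. The granule mean ran from 0.28 to 0.36, the receptor mean from 0.09 to 0.17 and the gap between these means from 0.17 to 0.19. Selp and Ppbp, which known differences had put first, carry that gap, so no split by role is read from it. The count of listed genes whose groups did not overlap was 5 higher and 1 lower as deposited, and 3 and 0 under both other scalings. The 4 genes called over all genes became 2 after median centring, 9 with a variance trend, 12 at the filter on the 40th percentile, 13 at the filter on the olfactory receptor level, 16 with array weights and 0 over all rows, where unnamed rows add tests. Between 0 and 1 gene was called with 1 array left out (Olfr218, without knockout 1), 12 at an adjusted p under 0.1 and 1074 at an unadjusted p under 0.05. The cause was not tested, other than that the filters leave fewer genes. In all settings 0 of the genes of the other lists passed the adjusted test, and at an unadjusted p under 0.05 the counts ran from 4 to 10 higher and 7 to 16 lower. Signal over background limits Vwf and Treml1 most, with means 0.89 and 1.03 above the olfactory receptor level.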
